A study of Homo sapiens with 27 samples.

Results

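Histone variants and high mobility group (HMG) proteins set the composition and the compaction of chromatin, and 10 of their genes are described here in RM82 cells, an established Ewing sarcoma cell line. The genes were H2AZ1, H2AZ2, H2AX, H3-3A, H3-3B, MACROH2A1, HMGB1, HMGB2, HMGN1 and HMGN2. They were chosen by name, and every transcript of theirs in the deposited counts was taken through its identifier in GENCODE release 44 (genome build GRCh38). This gave 90 of the 93530 transcripts listed and all 10 genes of 18776. The cells had been incubated for 24 h with SGC-CLK-1, a small molecule that inhibits CDC-like kinases, the enzymes that phosphorylate splicing factors of the SR family, or with dimethylsulfoxide (DMSO), the vehicle, as the control, with 3 libraries in each group. RM82 is a single cell line. The study states as a general rule that its experiments were repeated independently, and the labels do not tie each library to a culture of its own, so p-values measure the spread between these libraries.

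Groups are named by their labels throughout. The study plots transcripts of FRG2 and TLE5 for this experiment. The FRG2 transcript was counted 64, 44 and 60 times with the SGC-CLK-1 label and 96, 88 and 95 times with the DMSO label, which is opposite in direction to that plot. TLE5 was counted between 7 and 12 times in every library and its CPM overlapped between the groups, too few counts to tell the labels apart, so the conflict rests on FRG2. Each direction given below holds for the labels, and the treatment behind a label cannot be settled here. The SGC-CLK-1-labelled libraries held 666702, 362826 and 373004 counts in order of replicate number, and the DMSO-labelled ones held 416352, 523456 and 372876. Values are given in order of replicate number throughout, with the SGC-CLK-1 label first. The 10 genes held 0.448, 0.506 and 0.536% of the counts with the SGC-CLK-1 label and 0.584, 0.533 and 0.746% with the DMSO label. The ranges overlapped by a narrow margin, since DMSO replicate 2 lay just under SGC-CLK-1 replicate 3. Of 14 Ewing sarcoma markers, 12 were listed, and they summed to between 4441 and 5694 CPM per library (CPM are counts scaled to a library total of 1000000), with CAV1, the most abundant, between 2632 and 3943 CPM and BCL11B between 413 and 625 CPM. CAV1 made up most of this sum in every library. CD99, the surface marker used in diagnosis, lay between 93.7 and 174 CPM, whereas NKX2-2 and FLI1 were not listed in any library. Other listed markers had too few counts to be tested. PRKCB lay between 13.4 and 28.8 CPM, LIPI between 0 and 30.3 and NPY1R between 0 and 13.4 CPM. NR0B1 lay between 2.40 and 11.5 CPM and IGFBP3 between 0 and 8.05 CPM. Markers of other cell types summed to between 24.1 and 43.2 CPM over the 8 of 12 that were listed, with the leukocyte marker PTPRC, between 5.73 and 32.2 CPM, as the most abundant, and CD3E, MYOD1 and MYOG were among those not listed. None of the untested Ewing sarcoma markers exceeded the highest value of PTPRC.

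Most histone genes are transcribed in S phase, and their mRNAs end in a stem-loop in place of a poly(A) tail. Most histone variants are encoded by genes with introns and polyadenylated mRNAs, which cDNA primed with oligo(dT) captures. H2AX is an exception, a gene without introns whose mRNA can end in either form. H2A.Z replaces H2A in nucleosomes around transcription start sites, H3.3 is placed outside replication at active genes and at heterochromatic repeats, H2A.X carries the phosphorylation mark of DNA double-strand breaks, and macroH2A has a large globular domain and is enriched on silent chromatin. HMGB proteins bend DNA through HMG boxes, and HMGN proteins bind the nucleosome and loosen its packing. In pooled cells, fewer cells that express a gene and less RNA per cell cannot be told apart.

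H3.3 is made from 2 genes, which encode the same protein with different codons, so that reads of the pair can be told apart within the coding sequence too. The coding sequence of H3-3A-203 and that of H3-3B-201 are each 408 bases long without the stop codon and are identical at 320 positions (78.4%). Of the 88 positions that differ, 77 are at the last base of a codon. The first 120 coding bases of each are shown because they hold 24 of these differences, which are in capitals. They lie at chr1:226064352-226064471 on the plus strand for H3-3A and at chr17:75779055-75779174 on the minus strand for H3-3B, in the first coding exon of each gene.
H3-3A-203: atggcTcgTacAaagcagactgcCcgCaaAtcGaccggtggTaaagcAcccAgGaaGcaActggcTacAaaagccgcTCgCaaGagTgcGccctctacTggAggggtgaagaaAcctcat
H3-3B-201: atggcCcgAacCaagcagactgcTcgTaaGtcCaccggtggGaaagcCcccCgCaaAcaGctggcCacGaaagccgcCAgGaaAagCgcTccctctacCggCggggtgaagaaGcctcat

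MACROH2A1 has 2 coding exons that are used in place of each other, and they are shown because they separate its best known protein isoforms. The shorter exon belongs to macroH2A1.1, whose macrodomain binds ADP-ribose, and the longer one to macroH2A1.2, which lacks this binding. The exon of 100 bases at chr5:135352946-135353045 is part of 3 listed transcripts (MACROH2A1-217, MACROH2A1-201 and MACROH2A1-215), and the exon of 91 bases at chr5:135350823-135350913 is part of MACROH2A1-202. Both are on the minus strand. Capitals mark the exon, and the 15 bases on each side, in lower case, come from the neighbouring exons, which are shared.
MACROH2A1-217: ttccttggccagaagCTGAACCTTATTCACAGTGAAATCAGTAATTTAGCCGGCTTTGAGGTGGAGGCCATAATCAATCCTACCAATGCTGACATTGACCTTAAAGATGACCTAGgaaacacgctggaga
MACROH2A1-202: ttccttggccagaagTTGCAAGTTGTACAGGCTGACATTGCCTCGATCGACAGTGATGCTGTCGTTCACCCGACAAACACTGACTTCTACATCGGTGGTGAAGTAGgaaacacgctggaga

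H2AZ1 shows how close annotated transcripts of 1 gene can be. H2AZ1-201 and H2AZ1-207 use splice donors 3 bases apart, at the end of an exon that starts, in genome coordinates, at 99948811 in the first and at 99948814 in the second on chromosome 4 (minus strand). Capitals mark the bases that H2AZ1-201 has in addition.
H2AZ1-201: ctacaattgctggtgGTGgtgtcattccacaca
H2AZ1-207: ctacaattgctggtggtgtcattccacaca

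These 2 transcripts were counted almost alike, 180, 95 and 86 times (H2AZ1-201) against 180, 93 and 85 times (H2AZ1-207) with the SGC-CLK-1 label and 171, 158 and 152 against 169, 160 and 151 times with the DMSO label. No library separated them by more than 2 counts. The authors kept up to 3 secondary alignments of a read where these scored at least 0.9 of the best one, so a molecule can be counted on several transcripts. Of the 24 tested member transcripts other than the most abundant of each gene, 12 had at least 80% of their bases in exons of that most abundant transcript. The sum over transcripts was larger than the highest transcript count, by a ratio between 1.14 (HMGN2) and 4.90 (HMGN1) over the 6 libraries. Transcripts of a gene are not independent of each other in what follows, and the level of a gene is a sum over its transcripts unless stated.

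Per kilobase of transcript (length weighted by counts), the levels from sums over transcripts with the DMSO label followed the order H2AZ1 (926 ± 162 CPM per kb, SD, n = 3), H3-3A (747 ± 183), HMGB1 (744 ± 187), HMGN2 (370 ± 16.1), H3-3B (188 ± 21.04), HMGB2 (173 ± 61.4), HMGN1 (137 ± 29.1), MACROH2A1 (54.0 ± 8.29) and H2AZ2 (30.8 ± 6.24). Neighbours in this order overlapped between libraries from H2AZ1 to HMGB1 and from H3-3B to HMGN1, and the other neighbours stood apart. With the SGC-CLK-1 label H3-3A came first at 814 ± 130 CPM per kb, before H2AZ1 at 624 ± 68.2 and HMGB1 at 582 ± 126, and these 3 again overlapped. H3-3B came after HMGN1 (138 ± 17.3) and HMGB2 (110 ± 16.1) there, at 99.8 ± 25.3 CPM per kb, and overlapped with HMGB2 only. These orders depended on the sums, in which molecules counted on several transcripts weigh more. From the most abundant transcript of each gene and its length, an order computed after seeing the data, HMGN2 came right after H2AZ1. With the DMSO label H2AZ1-201 was at 431 ± 71.6 CPM per kb, HMGN2-201 at 295 ± 24.1, H3-3A-203 at 199 ± 40.9 and HMGB1-203 at 150 ± 34.5 (SD, n = 3), and HMGN2 stood apart from both of its neighbours. With the SGC-CLK-1 label they were at 293 ± 24.03, 246 ± 22.8, 218 ± 36.2 and 117 ± 27.1 CPM per kb, and HMGN2 and H3-3A overlapped. H2AZ1 thus came before H3-3A under both labels here.

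**Figure D1:**
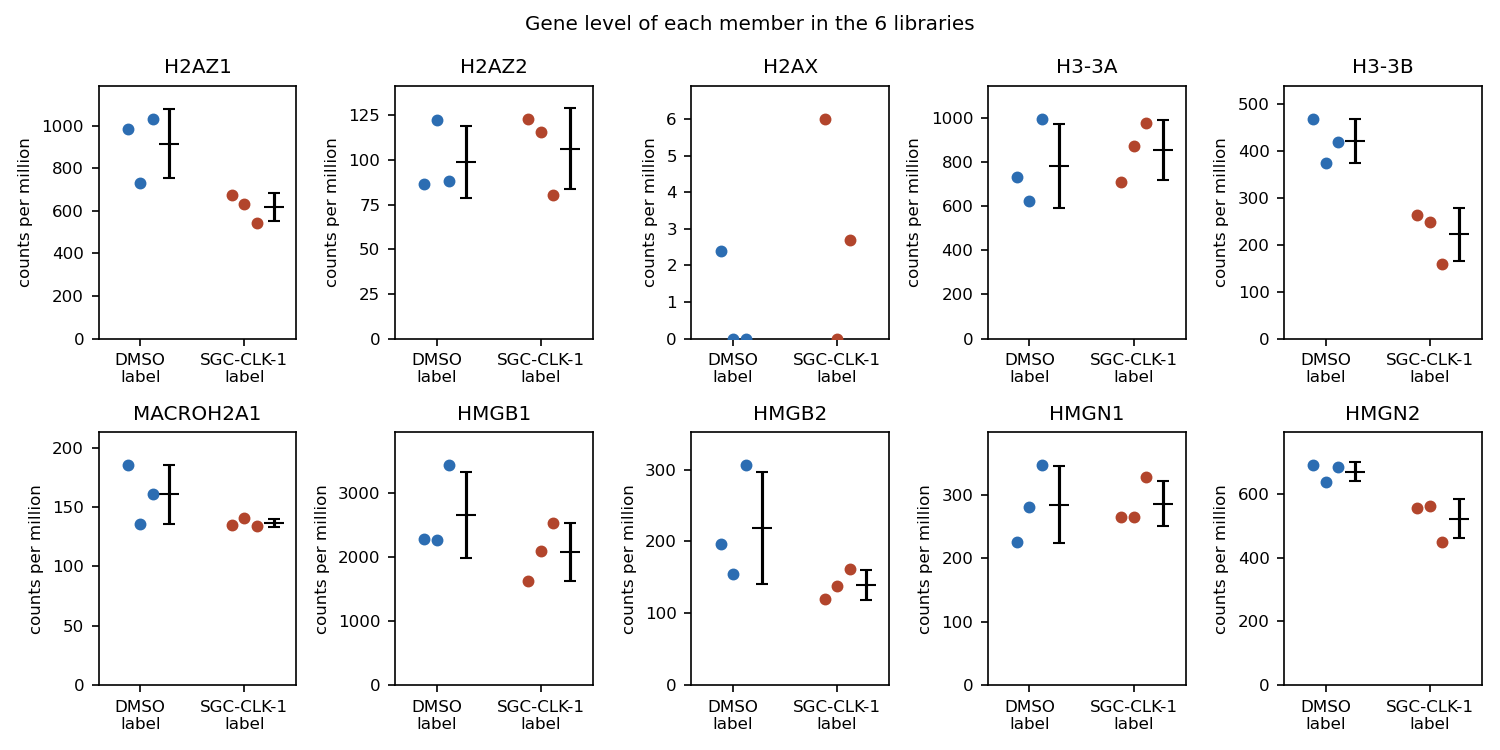
Gene level in CPM (counts summed over transcripts, scaled to the library's total; linear axes from 0) of the 10 genes, with 1 point per library in each labelled group and the mean ± SD beside them. H2AX, with at most 4 counts per library, has no mean drawn, and the groups stand apart for H2AZ1, H3-3B and HMGN2, each with lower values under the SGC-CLK-1 label.

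Of the 9 genes with enough counts to be tested, none passed an adjusted p of 0.05 between the labels, against 0.236% of all genes tested (edgeR quasi-likelihood F-test, p adjusted by Benjamini-Hochberg over 6344 genes). At an unadjusted p under 0.05, 4 of the 9 passed, all with lower values under the SGC-CLK-1 label, where 6.97% of all genes tested did so in that direction and 13.9% in either. DESeq2 gave an adjusted p to 7 of the members and called 2 of these, both lower under the SGC-CLK-1 label, beside 10.1% of all 1303 genes with an adjusted p in either direction and 7.98% lower. The groups did not overlap for 3 of the 9, again lower under the SGC-CLK-1 label in each case, and 7.66% of all genes did so in that direction. The log2 fold change was below 0 for 7 of the 9 members, beside 50.1% of all genes, and its median was -0.43 over the members and -0.0012 over all genes. Without DMSO replicate 3, the median over the members was -0.28, beside 0.0025 over all genes. In that fit 2 of the 9 had an unadjusted p under 0.05 (edgeR), beside 782 of all 7103 genes tested. With 3 libraries against 3, the exact permutation test of a single value cannot go below p = 0.1.

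H3-3B, on chromosome 17 from 75776434 to 75785893, had the log2 fold change farthest from 0 of the members tested. It was at 262, 248 and 158 CPM with the SGC-CLK-1 label against 468, 374 and 418 CPM with the DMSO label. The highest library under the first label lay well under the lowest under the second, and SGC-CLK-1 replicate 3 was the lowest of the 6. This log2 fold change was -0.98 ± 0.23 (SE), with an unadjusted p of 0.00071 and an adjusted p of 0.072 by edgeR, which misses the threshold. Its adjusted p passed in 4 of the alternatives, with no filter on low counts (0.014), with at least 10 counts in every library (0.045), with DESeq2 (0.0022) and with the highest transcript count in place of the sum (0.032), and with 1 library left out it lay between 0.085 and 0.245.

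H3-3A, the other H3.3 gene, on chromosome 1 from 226061851 to 226072019, did not differ beyond the spread of its libraries. Its level was 711, 874 and 981 CPM with the SGC-CLK-1 label and 733, 625 and 998 CPM with the DMSO label. The groups covered the same range. Its log2 fold change was 0.04 ± 0.22 (SE, edgeR adjusted p = 0.958), and its sign depended on single libraries, between -0.11 and 0.28 with 1 library left out.

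As a share of both genes, H3-3B made up 27.0, 22.1 and 13.9% of the H3.3 counts with the SGC-CLK-1 label and 39.0, 37.5 and 29.5% with the DMSO label. The groups did not overlap, with means of 20.99% ± 6.61 and 35.3% ± 5.08 (SD, n = 3), a difference of -14.4 points (by the exact permutation test, two-sided p = 0.1, the smallest that 3 against 3 allows; adjusted p = 0.267 over the 4 related pairs). From the highest transcript count of each gene the shares were 50.8, 43.0 and 34.0% against 60.7, 61.5 and 49.5%. The difference was then -14.6 percentage points, and the groups overlapped between SGC-CLK-1 replicate 1 and DMSO replicate 3 (exact permutation test, p = 0.2). The level of the share thus depended on how transcripts were combined, while the size of the difference moved little. This ratio was computed after the values of both genes had been seen. The other pairs overlapped between the groups. H2AZ1 made up 85.4% ± 1.47 and 89.9% ± 3.64 of the H2A.Z counts (SGC-CLK-1 label first; SD, n = 3), HMGB2 6.36% ± 0.465 and 7.52% ± 0.985 of HMGB1 plus HMGB2, and HMGN2 64.5% ± 5.71 and 70.4% ± 4.54 of HMGN1 plus HMGN2 (exact permutation test, p = 0.2, 0.2 and 0.3).

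**Figure D2:**
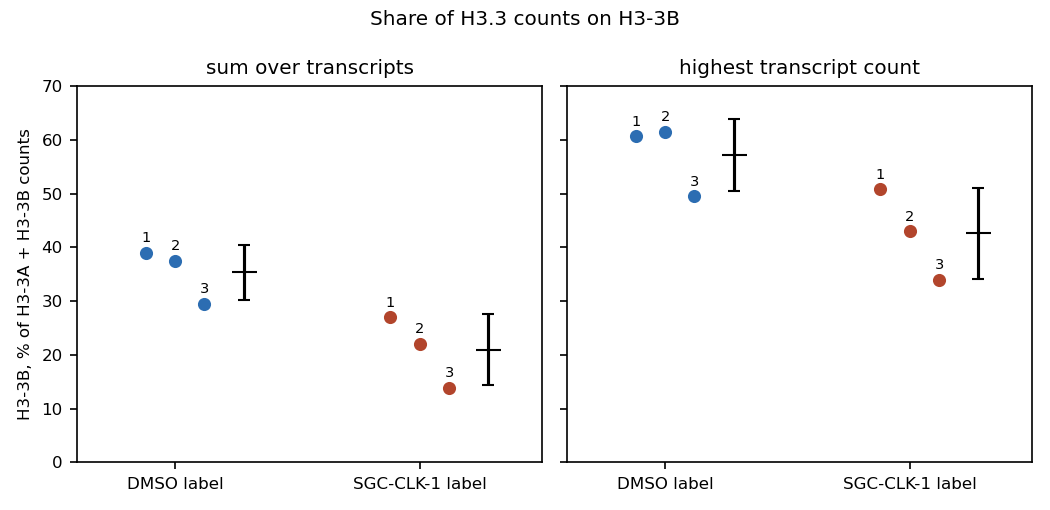
H3-3B as a percentage of the counts of H3-3A plus H3-3B (vertical axis from 0) in each library, numbered by replicate, with the mean ± SD beside the points. The left panel uses counts summed over transcripts and the right panel the highest transcript count of each gene, and the groups overlap on the right only.

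H2AZ1, the more abundant H2A.Z gene, on chromosome 4 from 99948086 to 99950355, was at 676, 634 and 544 CPM with the SGC-CLK-1 label against 985, 734 and 1033 CPM with the DMSO label. All libraries of the first group lay below all of the second, with DMSO replicate 2 closest to them. Its log2 fold change was -0.64 ± 0.20 (SE), with an unadjusted p of 0.0059 and an adjusted p of 0.146 by edgeR. DESeq2 gave an adjusted p of 0.012, and no other alternative passed. H2AZ2, which encodes a near-identical H2A.Z protein on chromosome 7, was at 123, 116 and 80.4 CPM against 86.5, 122 and 88.5 CPM. The groups covered the same range here, and the log2 fold change was 0.03 ± 0.28 (SE, edgeR adjusted p = 0.976).

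H2AX, on chromosome 11, was close to absent from these libraries and was not tested. It was counted 4, 0 and 1 times with the SGC-CLK-1 label and 1, 0 and 0 times with the DMSO label, a pooled 5 and 1 counts of 1402532 and 1312684. On log2(CPM + 1), the exact two-sided permutation test gave p = 0.4. A count of 0 allows a level of up to 8.27 CPM in SGC-CLK-1 replicate 2, 5.73 in DMSO replicate 2 and 8.05 in DMSO replicate 3 (3 counts of the library's total, for counting error only), and a difference was not detectable at this depth.

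MACROH2A1, on chromosome 5 from 135334381 to 135399914, was at 135, 141 and 134 CPM with the SGC-CLK-1 label against 185, 136 and 161 CPM with the DMSO label. DMSO replicate 2 fell inside the range of the other group, and the log2 fold change was -0.30 ± 0.23 (SE, edgeR adjusted p = 0.617). Of the counts on transcripts with one of the alternative exons, the transcript with the 91-base exon held 17.0, 18.5 and 18.4% with the SGC-CLK-1 label and 10.4, 20.4 and 7.69% with the DMSO label. Only 3 to 10 counts per library stood on that transcript, the groups overlapped, and the difference of 5.13 points was within the spread of the DMSO libraries (exact two-sided permutation test, p = 0.4). A change in the choice of exon was not detectable at this depth.

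HMGB1, an abundant nuclear protein that also acts as a danger signal outside cells, was the member with the most counts, on chromosome 13 from 30456704 to 30617597. It was at 1623, 2086 and 2520 CPM with the SGC-CLK-1 label against 2270, 2266 and 3425 CPM with the DMSO label. The groups overlapped, and DMSO replicate 3 was the highest library. By edgeR, the log2 fold change was -0.44 ± 0.22 (SE), with an unadjusted p of 0.065 and an adjusted p of 0.395, and the estimate was -0.19 without DMSO replicate 3. HMGB2, a relative of HMGB1 associated with proliferating cells, on chromosome 4 from 173331376 to 173334432, was at 120, 138 and 161 CPM against 197, 155 and 306 CPM. DMSO replicate 3 was again the highest, and DMSO replicate 2 fell under SGC-CLK-1 replicate 3. For HMGB2 the log2 fold change was -0.73 ± 0.28 (SE), with an unadjusted p = 0.020 and an adjusted p = 0.251 (edgeR), and the estimate was -0.39 without DMSO replicate 3.

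HMGN2, on chromosome 1 from 26472440 to 26476642, was at 555, 562 and 450 CPM with the SGC-CLK-1 label against 689, 636 and 684 CPM with the DMSO label, without overlap. Its log2 fold change was -0.43 ± 0.19 (SE), with an unadjusted p = 0.035 and an adjusted p = 0.318 (edgeR). With the highest transcript count in place of the sum, the estimate for HMGN2 was -0.28 (edgeR unadjusted p = 0.11). The unadjusted p by edgeR was 0.12 with protein-coding transcripts only and 0.074 with library size only. HMGN1, on chromosome 21 from 39342315 to 39349647, was at 265, 265 and 327 CPM against 226, 281 and 346 CPM. The DMSO libraries enclosed the others, and the log2 fold change was -0.07 ± 0.23 (SE, edgeR adjusted p = 0.923). Its sign turned with scaling by library size only (0.01) and without DMSO replicate 3 (0.11).

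**Figure D3:**
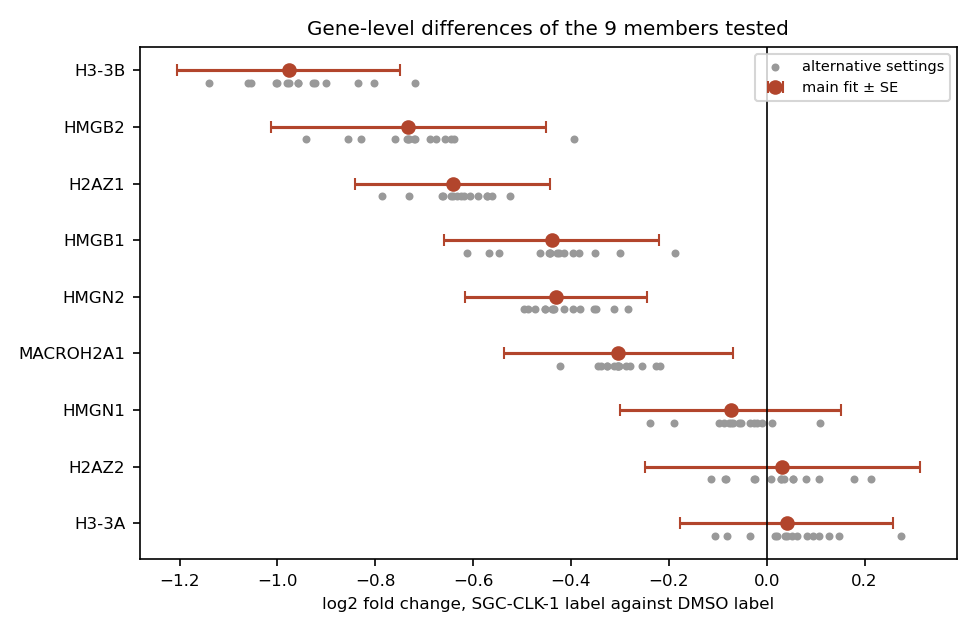
Log2 fold change (horizontal axis; SGC-CLK-1 label against DMSO label) of the 9 genes tested, as the edgeR estimate ± standard error in colour and the estimates under the alternative settings as grey points. H3-3B is farthest from 0 at -0.98, and the grey points of H3-3A, H2AZ2 and HMGN1 fall on both sides of 0.

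At the level of transcripts, 33 of the 90 were tested, and the other 57 held 5.66% of the counts of the members. In this fit 1 of the 33 passed an adjusted p of 0.05, beside 3.95% of all 7840 transcripts tested, and 9 passed an unadjusted p of 0.05, beside 18.0%. Of the 9, 8 had lower values with the SGC-CLK-1 label (9.11% of all transcripts) and 1 higher values (8.93%). The log2 fold change was below 0 for 23 of the 33, beside 50.5% of all, and the groups stood apart with lower values under the SGC-CLK-1 label for 7, beside 11.7%. The transcript that passed was H3-3B-203, annotated as a retained intron, which spans chr17:75778072-75779772 as 1 unspliced exon of 1701 bases. It was counted 13, 7 and 2 times with the SGC-CLK-1 label and 15, 19 and 20 times with the DMSO label, or 19.5, 19.3 and 5.36 CPM against 36.0, 36.3 and 53.6 CPM. The groups did not overlap, and SGC-CLK-1 replicate 3 was the lowest with 2 counts.

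The log2 fold change of H3-3B-203 was -1.39 ± 0.40 (SE, edgeR adjusted p = 0.044). This call was lost with each library left out in turn (adjusted p between 0.055 and 0.203), without TMM scaling (0.054) and with no filter (0.109), the transcript fell under a filter of at least 10 counts in every library, and DESeq2 gave it no adjusted p. It held with RLE scaling (0.045) and with the replicate numbers entered as a block (0.037). Each alternative that gave a log2 fold change kept the direction. Of the bases of H3-3B-203, 62.3% lie in exons of H3-3B-201. The spliced, protein-coding H3-3B-201, the most abundant transcript of the gene, was at 199, 179 and 139 CPM against 327, 271 and 252 CPM. Its log2 fold change was -0.69 ± 0.21 (SE, edgeR adjusted p = 0.058). It passed with DESeq2 (0.045), without DMSO replicate 3 (0.047) and with the replicate numbers entered as a block (0.025). H3-3B-213, a transcript without a defined coding sequence, had a log2 fold change of -1.24 ± 0.38 (SE, adjusted p = 0.060), from 22.5, 19.3 and 8.04 CPM against 40.8, 36.3 and 51.0 CPM. With the block its edgeR adjusted p was 0.046. All 3 tested transcripts of H3-3B thus stood apart between the groups in the same direction.

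As a share of the H3-3B counts, transcripts not annotated as protein coding made up 17.7, 17.8 and 8.47% with the SGC-CLK-1 label and 18.5, 20.4 and 27.6% with the DMSO label. These groups were next to each other without overlap (exact two-sided permutation test, p = 0.1; adjusted p = 0.9 over 9 genes). The other members overlapped in this share. In HMGN1, where transcripts classed for nonsense-mediated decay or as retained introns took most of the counts, it was 80.2, 76.0 and 83.6% with the SGC-CLK-1 label and 83.0, 81.0 and 79.1% with the DMSO label. The means were 36.7% ± 11.2 and 34.1% ± 4.12 in MACROH2A1 (SGC-CLK-1 label first; SD, n = 3), 18.1% ± 2.21 and 18.5% ± 2.41 in H2AZ1 and 8.58% ± 2.93 and 14.6% ± 4.21 in HMGN2. In H2AZ2 it was 0 in every library. The share of a gene's counts on its most abundant transcript overlapped between the groups in all 9 genes, and the smallest p was 0.2 (exact permutation test; adjusted p = 0.6), for H3-3B, MACROH2A1 and HMGN2.

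**Figure D4:**
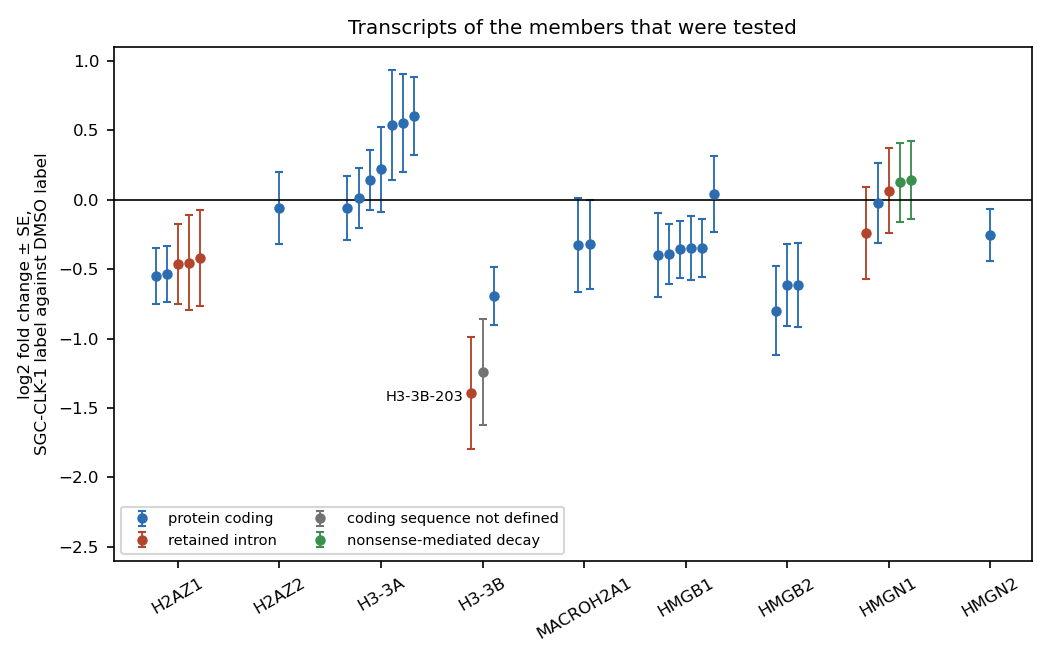
Log2 fold change ± standard error (vertical axis; SGC-CLK-1 label against DMSO label) of the 33 tested transcripts, grouped by gene and coloured by annotated class. H3-3B-203, at -1.39, is named as the transcript with an adjusted p under 0.05, and the H3-3A transcripts reach up to 0.60.

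Of the remaining transcripts with an unadjusted p under 0.05, H2AZ1-207 (log2 fold change -0.55 ± 0.20, SE, edgeR adjusted p = 0.126) and H2AZ1-201 (-0.54 ± 0.20, adjusted p = 0.137) are the pair of near-identical transcripts shown above. The 3 tested transcripts of HMGB2 had log2 fold changes of -0.80 (HMGB2-202), -0.61 (HMGB2-203) and -0.61 (HMGB2-201), with adjusted p between 0.179 and 0.276 (edgeR). Without DMSO replicate 3 they were at -0.54, -0.37 and -0.33 in the same order. H3-3A-204 was the only one of the 9 in the other direction. It was at 70.5, 91.0 and 93.8 CPM with the SGC-CLK-1 label against 40.8, 49.7 and 77.8 CPM with the DMSO label, and DMSO replicate 3 lay inside the range of the other group. Its log2 fold change was 0.60 ± 0.28 (SE, edgeR adjusted p = 0.253).

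H3-3A-204 belongs to the 6 listed H3-3A transcripts whose annotated 3′ end lies at least 200 bases before that of H3-3A-203. Together they held 27.0, 26.2 and 26.8% of the H3-3A counts with the SGC-CLK-1 label and 16.7, 21.7 and 23.7% with the DMSO label. The groups did not overlap (means 26.7% ± 0.424 and 20.7% ± 3.58, SD, n = 3; exact two-sided permutation test, p = 0.1, adjusted p = 0.3 over this class and those of the MACROH2A1 and HMGN1 exons). Of the 6, 4 were tested, with log2 fold changes of 0.60 (H3-3A-204), 0.55 (H3-3A-209), 0.54 (H3-3A-210) and 0.22 (H3-3A-208), and the 3 other tested H3-3A transcripts lay between -0.06 and 0.14. This class was formed after the values had been seen, as were those of the exons. H3-3A-203 itself was the most abundant transcript of the gene, with a log2 fold change of 0.14 ± 0.22 (SE, edgeR adjusted p = 0.791).

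The most abundant transcripts of the other genes were H2AZ2-201 (log2 fold change -0.06 ± 0.26, SE), MACROH2A1-217 (-0.32 ± 0.32), HMGB1-203 (-0.36 ± 0.21), HMGN1-204 (-0.02 ± 0.29) and HMGN2-201 (-0.25 ± 0.19), and H2AX-202, which was not tested. The smallest adjusted p among the 5 tested was 0.390 by edgeR. HMGB1-203 was at -0.18 without SGC-CLK-1 replicate 1 and also without DMSO replicate 3, and HMGN2-201 at -0.16 without SGC-CLK-1 replicate 3. Of the HMGN1 counts on transcripts with or without an exon of 129 bases at chr21:39345830-39345958, those with it held 55.9, 55.6 and 57.3% with the SGC-CLK-1 label and 63.3, 52.4 and 47.7% with the DMSO label. The exon is part of 5 listed transcripts, of which 4 are classed for nonsense-mediated decay, and the groups overlapped (exact permutation test, p = 0.7). In the test of transcript usage, which compares each transcript with the rest of its gene, 7 member genes had 2 or more tested transcripts. None passed an adjusted or an unadjusted p of 0.05, against 0.277% and 1.72% of all 1805 genes tested (edgeR's diffSpliceDGE, Simes p per gene). The F test per gene of diffSpliceDGE gave no member an unadjusted p under 0.05 either, beside 60 of all 1805 genes. The smallest unadjusted p was that of H3-3B in both, 0.430 by the Simes method and 0.161 by the F test.

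Processed pseudogenes can take reads of a member. GENCODE names 15 listed pseudogenes after HMGB1, 10 after HMGN2, 6 after HMGN1 and 1 after H2AZ2. HMGB1P5 was the most counted, 43, 19 and 14 times with the SGC-CLK-1 label and 34, 27 and 35 times with the DMSO label. Over the 6 libraries the pseudogenes held 4.31% of the counts of HMGB1 plus its pseudogenes, 6.21% of those of H2AZ2, 2.12% of those of HMGN2 and 1.42% of those of HMGN1, and adding them changed no call of a member. A further 13 listed pseudogenes carry the symbol H2AZP or H3P with a number and were not added. H3P25 had the most counts of these, 8, 3 and 6 with the SGC-CLK-1 label and 10, 11 and 5 with the DMSO label, and the others had at most 2 in any library.

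Related genes were listed by function. Of 16 other histone variants and replication-dependent or linker histones, such as CENPA, the centromeric H3 variant, and MACROH2A2, 13 were listed and none had enough counts to be tested. Their counts summed to 93.0, 79.9 and 121 CPM with the SGC-CLK-1 label against 151, 105 and 69.7 CPM with the DMSO label, and the groups overlapped. The 2 with the most counts, named after their values were seen, are replication-dependent. Their group means differed in opposite directions, and neither difference was tested. H2AC6, an H2A gene, was at 13.5, 16.5 and 24.1 CPM against 62.4, 43.9 and 21.5 CPM, with overlap between the third replicates. H4C3, an H4 gene, was at 42.0, 19.3 and 50.9 CPM against 2.40, 17.2 and 5.36 CPM, where the second replicates were close to each other. Of 17 other genes with an HMG name or an HMG box, 12 were tested, and 10 had a log2 fold change below 0, beside 50.1% of all genes. None passed an adjusted p of 0.05 and 4 passed an unadjusted p of 0.05 (edgeR), all lower with the SGC-CLK-1 label, beside 6.97% of all genes in that direction, with a median of -0.43 over the 12. DESeq2 gave an adjusted p to 6 of them and called none, beside 10.1% of all genes in either direction.

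UBTF, a factor of ribosomal DNA transcription by RNA polymerase I, was at 73.5, 66.1 and 53.6 CPM with the SGC-CLK-1 label against 127, 147 and 118 CPM with the DMSO label. The groups stood well apart, and the log2 fold change was -1.08 ± 0.27 (SE, edgeR adjusted p = 0.090). HMGN3, another HMGN protein, was at 142, 132 and 139 CPM against 214, 159 and 287 CPM. The groups did not overlap either, and the log2 fold change was -0.74 ± 0.26 (SE, adjusted p = 0.203), or -0.48 without DMSO replicate 3, the highest library.

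Histone chaperones and the complexes that load H2A.Z or H3.3 had no common direction. Of 35 listed, 30 were tested, 16 with a log2 fold change below 0 and 14 above, beside 50.1% of all genes below 0, and the median was -0.03. None passed an adjusted p of 0.05, beside 0.236% of all genes, and 2 in each direction passed an unadjusted p of 0.05 (edgeR), beside 6.97% of all genes lower and 6.89% higher. NPM1, nucleophosmin, a nucleolar chaperone, was at 1752, 1381 and 1705 CPM with the SGC-CLK-1 label against 2174, 2568 and 2693 CPM with the DMSO label, without overlap (log2 fold change -0.70 ± 0.18, SE, edgeR adjusted p = 0.098). HSPA8, a constitutive heat shock protein of the HSP70 family, was at 2616, 2070 and 2357 CPM against 3821, 6014 and 2719 CPM (log2 fold change -0.90 ± 0.24, SE, edgeR adjusted p = 0.10). HSPA8 was highest in DMSO replicate 2, without which its log2 fold change was -0.55. DESeq2 called both genes, 2 of the 12 chaperones to which it gave an adjusted p, beside 10.1% of all genes in either direction and 7.98% lower.

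The 5 listed regulators of MACROH2A1 splicing all had a log2 fold change above 0, with a median of 0.18, where 50.1% of all genes were below 0. None passed an adjusted or unadjusted p of 0.05 (edgeR), beside 0.236% and 13.9% of all genes. For 4 of the 5 DESeq2 gave an adjusted p, and it called none, beside 10.1% of all genes in either direction. DDX17 and QKI, an RNA helicase and an RNA-binding splicing factor, came nearest, with log2 fold changes of 0.34 ± 0.26 (SE, adjusted p = 0.616) and 0.29 ± 0.23 (SE, adjusted p = 0.632), and both were at 0.10 at the lowest with 1 library left out (DMSO replicate 2 for DDX17, SGC-CLK-1 replicate 3 for QKI). Of 9 genes for processing of histone mRNA, 5 were tested and 4 had a log2 fold change above 0, with a median of 0.21, where 50.1% of all genes were below 0. None had an adjusted p under 0.05 and 1 an unadjusted p under 0.05 with higher values (edgeR), beside 6.89% of all genes in that direction, and DESeq2 gave these genes no adjusted p. SLBP, which binds the stem-loop of replication-dependent histone mRNAs, was at 91.5, 102 and 93.8 CPM with the SGC-CLK-1 label against 40.8, 68.8 and 45.6 CPM with the DMSO label. The groups did not overlap, and the log2 fold change was 0.79 ± 0.31 (SE), with an unadjusted p = 0.022 and an adjusted p = 0.260 (edgeR). CPSF3, the endonuclease that cleaves pre-mRNA 3′ ends, had a log2 fold change of 0.34 ± 0.29 (SE, adjusted p = 0.665), and of 0.06 without DMSO replicate 2.

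**Figure D5:**
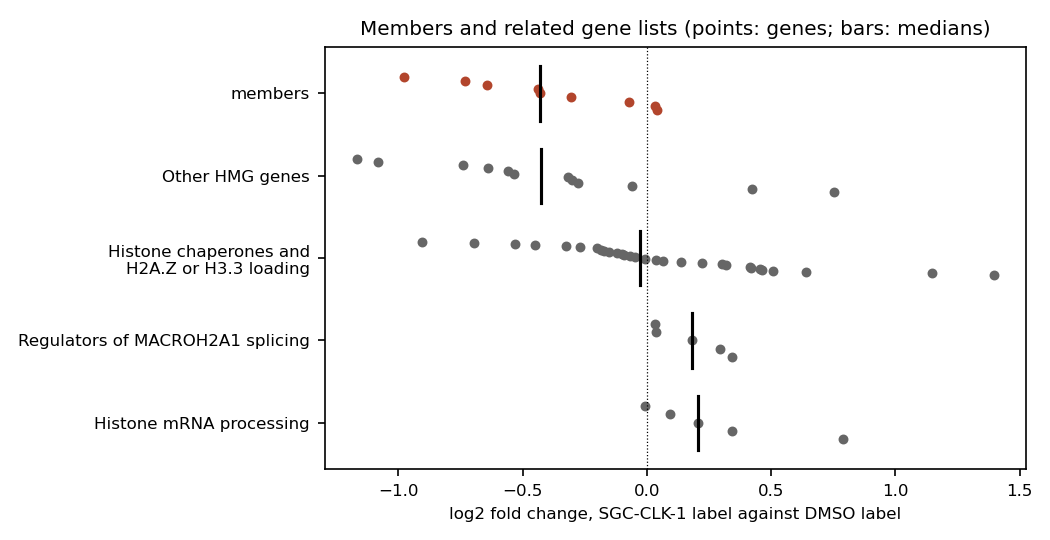
Log2 fold change (horizontal axis; SGC-CLK-1 label against DMSO label) of the 9 members tested and of the tested genes of 4 related lists, with 1 point per gene and a bar at the median. The members and the other HMG genes share a median of -0.43, and the chaperones spread on both sides of 0.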

How the data were processed

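The 6 RM82 libraries were cDNA from oligo(dT)-primed and template-switched RNA with homotrimer unique molecular identifiers (UMIs), sequenced by Oxford Nanopore (the labels also name an Illumina library kit). The authors mapped reads to human transcripts (Ensembl 98) with minimap2, deduplicated UMIs and deposited counts per transcript without normalization. Whether UMI-tools or homotrimer correction made these values is not given in the sources used here. The submitters' processing notes name minimap2 2.22, featureCounts 2.0.1, UMI-tools and DESeq2. Of the identifiers, 92.3% matched GENCODE 44, and sequences are from its transcripts.

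Counts were analysed with edgeR 4.0.16 in R 4.3.3 (filterByExpr, minimum 10, TMM, quasi-likelihood test, Benjamini-Hochberg adjusted p under 0.05 over all features), and usage with diffSpliceDGE. DESeq2 1.42.0 was an alternative, as were other scalings and filters, protein-coding transcripts only, added pseudogenes, left-out libraries and a replicate block. Shares were tested by exact two-sided permutation in scipy 1.17.1. The common biological coefficient of variation was 0.244 for genes and 0.169 for transcripts. Functions were tested on simulated data. Named were all 10 members, their most abundant transcripts, transcripts with unadjusted p under 0.05 and, per related list, the 2 genes with the smallest p. H2AC6, H4C3, CHAF1B, CABIN1, the untested Ewing sarcoma markers, 2 pseudogenes and further transcripts were named after their values were seen. Members and lists were chosen with earlier results of these data known. The 4 columns of a table of PCR libraries were not used, nor were the other data of the series.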

Additional observations from a re-analysis of the deposited data

How the results depend on the processing

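The direction of H3-3B, H2AZ1, HMGB1, HMGB2, HMGN2 and MACROH2A1 was kept under each alternative run, while the calls of H3-3B and H2AZ1 depended on the filter or the tool. Members called were 0 of 9 genes, but 1 with no filter, 1 with at least 10 counts in every library, 2 with DESeq2 and 1 with the highest transcript count in place of the sum, an alternative chosen after seeing the data. Of transcripts, 1 member was called, and 0 with library size only, with no filter or with at least 10 counts in every library, and 0 to 1 with 1 library left out. The call made without DMSO replicate 3 was of H3-3B-201 and not of H3-3B-203, and so was the 1 call made by DESeq2. Over all features, 15 genes were called and 28 with library size only, 169 with no filter, 64 with at least 10 counts in every library, 131 with DESeq2 (of 1303 with an adjusted p), 0 with protein-coding transcripts only, 164 with the highest transcript count and 1 to 21 with 1 library left out (2, 1 and 2 without SGC-CLK-1 replicates 1 to 3, and 1, 21 and 6 without DMSO replicates 1 to 3). Of the 15 genes, 7 were higher and 8 lower with the SGC-CLK-1 label, against 20 and 8 with library size only and 27 and 104 with DESeq2. With protein-coding transcripts only, 724 genes had an unadjusted p under 0.05 by edgeR. All-feature transcript calls were 310, and 162 with no filter, 173 with at least 10 counts in every library, 128 with DESeq2 and 81 to 363 with 1 library left out (212, 81 and 130, and 101, 363 and 226, in the same order). Usage calls were 5, and 1 with at least 10 counts in every library and 1 to 5 with 1 library left out (1, 2 and 2, and 1, 4 and 5). The cause was not tested. Log2 fold changes turned sign under an alternative for 3 genes and for 8 of the 33 tested transcripts. With 1 library left out these were H2AZ2 (-0.11 to 0.21), H3-3A (-0.11 to 0.28), HMGN1 (-0.24 to 0.11), H2AZ2-201 (-0.24 to 0.22), H3-3A-203 (-0.0017 to 0.28) and HMGN1-204 (-0.20 to 0.15). Over every alternative, the range was -0.24 to 0.07 for H3-3A-201, -0.12 to 0.16 for H3-3A-206, -0.19 to 0.31 for HMGB1-204, -0.02 to 0.24 for HMGN1-201 and -0.10 to 0.25 for HMGN1-216. The sign also turned with the highest transcript count H2AZ2 (-0.0848), and with library size only HMGN1 (0.0104) and HMGN1-204 (0.0264).

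The replicate numbers in the titles were entered as a replicate block. Deviations from the group means of libraries with the same number had correlations of 0.065, 0.024 and 0.032 over genes. SGC-CLK-1 replicates 1 and 2 correlated best with the DMSO library of the same number, and replicate 3 with DMSO replicate 2 (0.036). The main fit left the numbers out, and whether they mark pairs of libraries is not settled by these small values. With the block, 36 genes and 427 transcripts were called, no member gene and 3 member transcripts (H3-3B-203, H3-3B-201 and H3-3B-213), and HMGN1-204 turned to 0.018. Depth limits the comparison of H2AX and of the 91-base exon of MACROH2A1, where no library has more than 10 counts.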
